A study of Mus musculus with 6 samples.

Results

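Nonhomologous end joining was followed through 8 genes, Xrcc4, Xrcc5, Xrcc6, Prkdc, Dclre1c, Nhej1, Lig4 and Trp53bp1, chosen by name from a table of 24110 genes, and all 8 were found. RNA had been sequenced from hematopoietic stem cells of C57BL/6 mice, sorted for CD150 and Sca-1 and against CD48 and lineage antigens, 7 days after induction of the Prmt5 deletion. The controls were Prmt5 fl/fl mice, which carry the floxed allele undeleted, and the other group was Prmt5 KO, in which both alleles are deleted (Prmt5 Δ/Δ in the design text). Each of the 3 libraries per genotype held cells pooled from 2 mice, and mice were matched between genotypes by litter and sex. No source used here gives the driver of the recombinase, the inducing agent, the age of the mice or whether the controls received the agent. The study's title asks how PRMT5, a protein arginine methyltransferase, bears on splicing in these cells; values per gene show transcript levels and no splice forms.

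Nonhomologous end joining ligates the 2 ends of a broken chromosome without a template and is therefore open to cells that are not copying their DNA, as most hematopoietic stem cells are not. The Ku heterodimer of Ku70 (Xrcc6) and Ku80 (Xrcc5) encircles each end and recruits the kinase DNA-PKcs (Prkdc), which activates the nuclease Artemis (Dclre1c) to open hairpins and trim ends. XRCC4 and its structural relative XLF (Nhej1) align the ends as filaments, and DNA ligase IV (Lig4), held by XRCC4, seals them. 53BP1 (Trp53bp1) binds marked chromatin around a break and shields its ends from resection.

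None of the 8 genes passed the test between genotypes (limma, Benjamini-Hochberg adjusted p below 0.05 over 14113 genes tested), where 0.73% of all genes did. One member, Xrcc6, had an unadjusted p below 0.05. The members Xrcc6, Xrcc5 and Nhej1 had all KO libraries below all fl/fl libraries, with log2 fold changes of -0.37, -0.21 and -0.53. The values of the 5 others overlapped between the genotypes. Groups were apart with KO lower in 19.9% of all genes, so 3 of 8 is to be read against that share. In one fl/fl library, replicate 3, long members were low and short members high, and 3 of the 8 differences changed sign without it.

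The start regions of 4 genes are shown, those of the 3 members whose genotypes did not overlap and that of Lig4, the member with the lowest level, which lies back to back with another gene. Each run holds 250 bases before to 50 after a RefSeq start on GRCm38.p6, read along the gene's strand. RefSeq windows were matched by symbol for 7 of the 8 members. Capitals mark matches on either strand to GGGCGG (the GC box), CCGGAAG (ETS factors), CCAAT (the CCAAT box) or GCGCATG (most of an NRF1 site, which as a palindrome can match on both strands at overlapping places).
Xrcc6 (chr15:82016119-82016418, plus strand): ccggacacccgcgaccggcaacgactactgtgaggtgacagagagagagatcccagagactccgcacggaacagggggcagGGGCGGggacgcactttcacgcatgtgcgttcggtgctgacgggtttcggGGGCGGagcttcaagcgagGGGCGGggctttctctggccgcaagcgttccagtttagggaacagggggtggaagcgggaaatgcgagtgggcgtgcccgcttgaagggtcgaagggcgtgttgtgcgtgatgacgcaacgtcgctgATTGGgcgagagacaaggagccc
Xrcc5 (chr1:72307171-72307470, plus strand): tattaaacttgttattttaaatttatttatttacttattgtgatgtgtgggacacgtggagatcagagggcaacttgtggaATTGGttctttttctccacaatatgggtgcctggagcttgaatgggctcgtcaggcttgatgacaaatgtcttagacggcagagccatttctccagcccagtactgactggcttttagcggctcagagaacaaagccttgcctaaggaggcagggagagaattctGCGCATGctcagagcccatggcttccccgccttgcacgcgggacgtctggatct
Nhej1 (chr1:75125177-75125476, minus strand): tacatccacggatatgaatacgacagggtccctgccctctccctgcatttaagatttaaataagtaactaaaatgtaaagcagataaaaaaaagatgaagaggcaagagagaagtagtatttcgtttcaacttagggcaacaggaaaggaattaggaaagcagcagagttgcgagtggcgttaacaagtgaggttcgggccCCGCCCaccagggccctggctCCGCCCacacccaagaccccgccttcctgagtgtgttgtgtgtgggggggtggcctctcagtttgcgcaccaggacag
Lig4 (chr8:9977631-9977930, minus strand): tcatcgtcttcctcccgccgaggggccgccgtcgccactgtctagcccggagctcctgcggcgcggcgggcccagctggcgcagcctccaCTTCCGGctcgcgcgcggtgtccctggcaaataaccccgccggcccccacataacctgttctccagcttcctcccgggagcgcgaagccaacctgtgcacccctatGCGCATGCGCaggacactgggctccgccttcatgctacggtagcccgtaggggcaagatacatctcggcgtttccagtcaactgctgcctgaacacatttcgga
Of 32851 such windows of all genes, 35.7% held a GC box, 37.4% a CCAAT box, 8.86% the ETS letters and 3.91% the NRF1 letters. The Xrcc6 window held 3 GC boxes and 1 CCAAT box, and the Nhej1 window 2 GC boxes. The Xrcc5 window held 1 CCAAT box, 1 match to the NRF1 letters and no GC box. It was less rich in G and C (48.0%) than that of Xrcc6 (64.3%), the median of all windows being 52.7%. The printed Lig4 window held 1 ETS match and 2 NRF1 matches, which overlap each other. RefSeq gives Lig4 a second start, whose window (chr8:9976262-9976561) held 2 GC boxes, 1 ETS match and no NRF1 match and is not printed. These matches describe letters in the windows, and binding was not measured.

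Levels were first compared between members per kilobase of the gene length in the table, in scaled counts, that is reads brought to the same library total. That length differs from the GENCODE M21 exon bases for several members. It is 1547 against 4213 for Xrcc4, 2113 against 4476 for Xrcc6 and 9624 against 14164 for Trp53bp1, but 2556 against 2555 for Xrcc5. The annotation used for counting is not given, so which exons were counted is not known. Ratios between members depend on the length used, and their order can. Xrcc6 was highest, with a mean of 3414 scaled counts per kilobase over the 6 libraries, a level above 90.7% of tested genes. Xrcc5 followed at 1400, and the order of the Ku subunits was the same in 6 of 6 libraries, although their proteins act as a heterodimer. The ratio of Xrcc6 to Xrcc5 per kilobase was 2.44, 2.65 and 2.61 in fl/fl replicates 1 to 3 and 2.55, 2.13 and 2.22 in KO replicates 1 to 3. These ratios overlapped between genotypes.

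Xrcc4, Trp53bp1 and Nhej1 formed the middle of the order at 511, 471 and 435 scaled counts per kilobase, near the median of all tested genes. Their ranges overlapped, and Xrcc4 was above Trp53bp1 in only 3 of 6 libraries, so their order is not settled by these libraries. Without fl/fl replicate 3 the means were 470, 522 and 391, and Trp53bp1 came first among them. Prkdc was at 239 and Dclre1c at 142, and their ranges overlapped although Prkdc was higher in 6 of 6 libraries. Lig4 was far lower, at 30.2 scaled counts per kilobase, above 14.9% of tested genes, and its range of 21.7 to 35.7 lay apart from that of Dclre1c, the next in order (124 to 160). Per library, Xrcc4 stood at 12.1 to 28.4 times the level of its binding partner Lig4 per kilobase, with a mean ratio of 17.6, a pair whose proteins form one ligase complex. The lengths behind this ratio are 1547 bases for Xrcc4 and 4081 for Lig4, against 4213 and 5202 annotated exon bases.

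**Figure D1:**
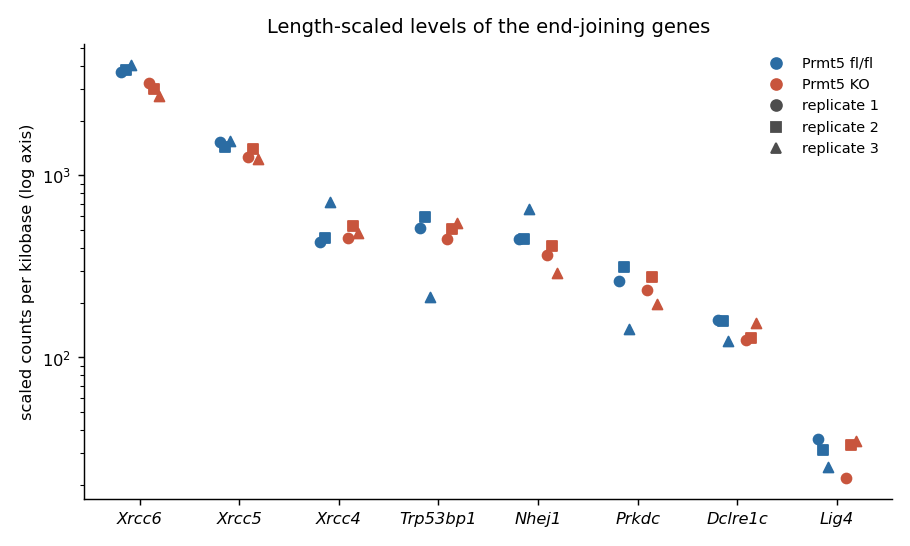
Scaled counts per kilobase of gene length (log axis) of the 8 end-joining genes, ordered by their mean; blue is Prmt5 fl/fl, red is Prmt5 KO, and the marker shape gives the replicate. Xrcc6 stands at 3414 and Lig4 at 30.2 on average, and fl/fl replicate 3 is the lowest point of Trp53bp1, Prkdc and Dclre1c and the highest of Xrcc4 and Nhej1.

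Before the genotypes were compared, the libraries were checked. Totals were 37834096 to 44704636 reads in genes, and each KO total was below each fl/fl total. Prmt5 had 6010 to 6076 scaled counts in the fl/fl libraries and 897 to 1056 in the KO libraries (log2 fold change -2.60, limma adjusted p = 6.18e-04), so the labels matched the targeted gene. Of the sorting genes, Slamf1 (CD150) was at 2731 to 4489 and Cd48 at 446 to 757 scaled counts, and other genes known from stem cells, such as Mecom and Hlf, were present in each library. Among B cell genes, Pax5 had at most 5 scaled counts, Vpreb1 36.6 to 92.1 and Cd79b 1543 to 2846. KO replicate 3 stood apart by genes of mature cells: Cd3e of T cells was at 154 scaled counts there and at 14.2 or less in the others, and S100a8 of granulocytes at 153117 against 2096 to 31873.

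One library stood apart by gene length. In fl/fl replicate 3, the 1543 tested genes of at least 6000 bases were lower than in the other fl/fl libraries by a median log2 of -0.75, and the 2667 genes under 1500 bases were higher by 0.46. In each KO library the same medians, taken against the other KO libraries, lay between -0.14 and 0.12. The 8 members span 846 to 12674 bases and followed this pattern. Nhej1 (846 bases) and Xrcc4 (1547 bases) stood 0.55 and 0.69 above the other fl/fl libraries in log2, where the trend of all genes at their lengths was 0.50 and 0.36. Xrcc6 and Xrcc5, of 2113 and 2556 bases, stood 0.11 and 0.08 above them, against trends of 0.21 and 0.08. The long members were low there: Lig4 by -0.40 (trend -0.36), Dclre1c by -0.37 (trend -0.67), Trp53bp1 by -1.36 (trend -0.73) and Prkdc by -1.01 (trend -0.76). What set the length pattern in this library was not tested, and the difference of each member is given below with and without it. The length trend removed below was fitted against the mean of all 6 libraries. A length trend between the genotypes is therefore removed with it.

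**Figure D2:**
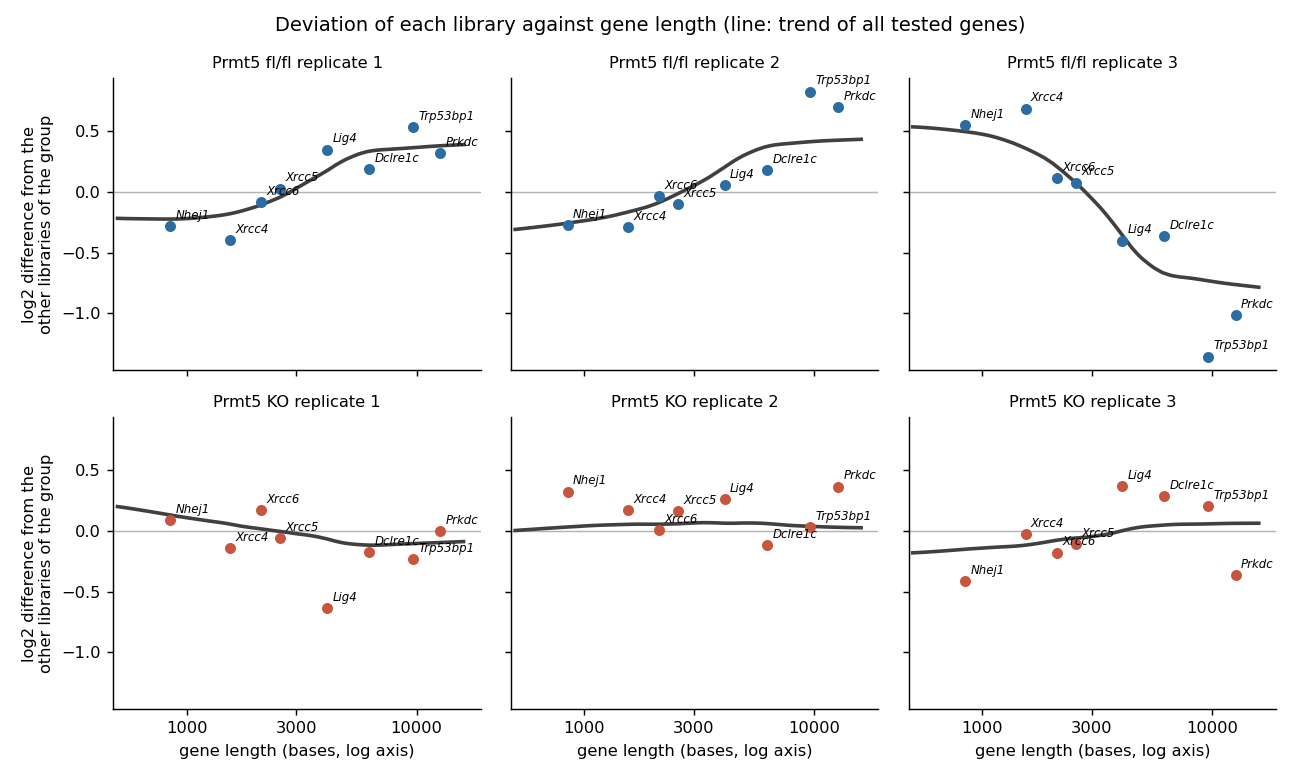
Log2 difference of each library from the mean of the other libraries of its genotype against gene length (log axis); points are the 8 end-joining genes and the line is the smoothed trend of all 14113 tested genes. In fl/fl replicate 3 the trend runs from 0.50 at the length of Nhej1 to -0.76 at that of Prkdc, and the short members lie above 0 and the long ones below.

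Xrcc6 encodes Ku70 and was the member with the smallest p. It had 7830, 8017 and 8578 scaled counts in fl/fl replicates 1 to 3. In KO replicates 1 to 3 it had 6798, 6289 and 5775. Every KO value was thus below every fl/fl value, and the means were 8142 ± 389 and 6287 ± 511 (SD, n = 3 each). The log2 fold change was -0.37 with a standard error of 0.12 and a 95% interval from -0.65 to -0.10, a change of -22.9% (limma, unadjusted p = 0.0136, adjusted p = 0.160). It was the only member of 8 with an unadjusted p below 0.05, against 18.2% of all tested genes, or 13.6% counting those lower in KO. Without fl/fl replicate 3 the difference was -0.34 (limma, adjusted p = 0.0951), and with each library's length trend removed it was -0.20 (limma, adjusted p = 0.191). Without KO replicate 3, the lowest KO library, it was -0.32 (limma, unadjusted p = 0.0519, adjusted p = 0.406). Xrcc6 lies on chromosome 15 (81987835 to 82040085, plus strand, GRCm38/mm10, GENCODE M21), and 344 of its exon bases overlap Desi1 on the other strand, whose reads an unstranded library cannot tell apart. The window printed above, at 82016119 to 82016418, lies within this span and not at its start. The length used is 2113 bases against 4476 annotated exon bases, so whether the shared bases were counted is not known.

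Its partner Xrcc5 encodes Ku80 and lies on chromosome 1 (72307421 to 72394952, plus strand). It had 3886, 3663 and 3976 scaled counts in fl/fl replicates 1 to 3, and 3225, 3572 and 3153 in KO replicates 1 to 3. The genotypes did not overlap, although KO replicate 2 and fl/fl replicate 2 were close. Xrcc5 differed by a log2 of -0.21 with a standard error of 0.12 and a 95% interval from -0.49 to 0.07 (limma, adjusted p = 0.393). Without fl/fl replicate 3 it was -0.19, without KO replicate 3 it was -0.18, and with the length trend removed -0.08.

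DNA-PKcs, the kinase that Ku recruits, is encoded by Prkdc (chromosome 16, 15637866 to 15842235, plus strand). Prkdc had 3354, 4002 and 1813 scaled counts in fl/fl replicates 1 to 3. It had 2958, 3508 and 2505 in KO replicates 1 to 3. The lowest and the highest value were both in fl/fl libraries, so the KO values lay within the fl/fl range. Prkdc differed by a log2 of 0.03 with a 95% interval from -0.66 to 0.72 (limma, adjusted p = 0.964), and it turned to -0.31 without fl/fl replicate 3 (limma, adjusted p = 0.285; 95% interval -0.68 to 0.06) and to -0.10 with the length trend removed. It was also below 0, at -0.09, without KO replicate 2. Mcm4, a subunit of the replicative helicase that starts 466 bases away on the other strand, was at 15471 ± 2635 and 17113 ± 1420 scaled counts (SD, n = 3 each; log2 0.16, limma adjusted p = 0.618). Mcm4 differed by a log2 of 0.01 without fl/fl replicate 3 and of 0.19 with the length trend removed.

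Dclre1c encodes the nuclease Artemis, which DNA-PKcs activates (chromosome 2, 3424131 to 3464130, plus strand). It had 995, 990 and 770 scaled counts in fl/fl replicates 1 to 3 and 773, 794 and 957 in KO replicates 1 to 3. The low fl/fl library was replicate 3 and the high KO library was replicate 3. The genotypes overlapped through fl/fl replicate 3 alone, as the highest KO value, 957, was below fl/fl replicates 1 and 2. For Dclre1c the log2 fold change was -0.12 with a 95% interval from -0.54 to 0.30 (limma, adjusted p = 0.745), -0.24 without fl/fl replicate 3 and -0.26 with the length trend removed. Its exons share 357 bases with Suv39h2 on the other strand.

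**Figure D3:**
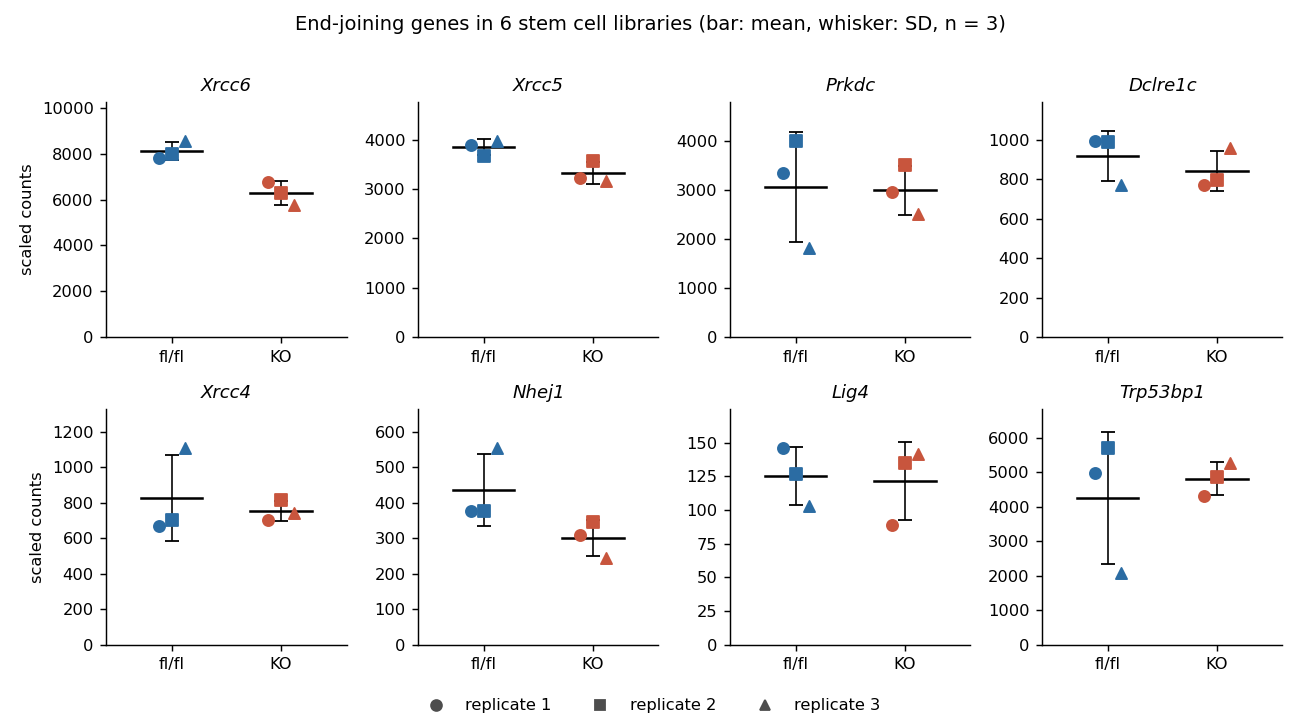
Scaled counts of the 8 end-joining genes in each library (points, shape by replicate), with the mean (bar) and SD (whisker) of 3 libraries per genotype; every axis starts at 0. KO values lie below fl/fl values for Xrcc6, Xrcc5 and Nhej1, and fl/fl replicate 3 lies apart from the other fl/fl libraries for Prkdc, Trp53bp1, Xrcc4 and Nhej1.

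Nhej1, which encodes XLF, had the largest difference of the 8 members in log2 (chromosome 1, 74967139 to 75125200, minus strand). Its fl/fl replicates 1 to 3 had 377, 378 and 554 scaled counts. Its KO replicates 1 to 3 had 310, 345 and 246. All KO values were lower, and the spread came mostly from replicate 3 of each genotype, at opposite ends. The log2 fold change was -0.53 with a standard error of 0.24 and a 95% interval from -1.09 to 0.04, a change of -30.6% (limma, unadjusted p = 0.0640, adjusted p = 0.306). The 2 remaining fl/fl libraries were still above all KO libraries without fl/fl replicate 3, with a difference of -0.34 (limma, adjusted p = 0.378), and the value was -0.37 with the length trend removed. Without KO replicate 3 it was -0.39 (limma, adjusted p = 0.608).

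Xrcc4 encodes the scaffold that XLF pairs with (chromosome 13, 89774027 to 90089608, minus strand). It had 670, 704 and 1106 scaled counts in fl/fl replicates 1 to 3, and 704, 815 and 743 in KO replicates 1 to 3. Apart from the high fl/fl replicate 3, the KO values lay above those of the fl/fl libraries, the closest of them both at 704. The log2 fold change was -0.10 with a 95% interval from -0.62 to 0.43 (limma, adjusted p = 0.846). It turned to 0.13 without fl/fl replicate 3 and to 0.12 with the length trend removed. Tmem167, which starts 485 bases away on the other strand and shares 112 exon bases with Xrcc4, had a log2 fold change of 0.02. The ratio of Xrcc4 to Nhej1 per kilobase was 0.97, 1.02 and 1.09 in fl/fl and 1.24, 1.29 and 1.65 in KO replicates 1 to 3, apart between genotypes. This ratio was looked at after the values of both genes were known and was not tested.

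Lig4 encodes the ligase of the pathway (chromosome 8, 9969049 to 9977686, minus strand). It had 146, 127 and 103 scaled counts in fl/fl replicates 1 to 3, and 88.6, 135 and 142 in KO replicates 1 to 3. Both genotypes covered nearly the same range. Its recovered reads numbered 75 to 144 per library, and for 75 reads the exact Poisson 95% interval runs from 59.0 to 94.0, which covers counting error only. These 75 reads were in KO replicate 1, and the intervals of KO replicates 2 and 3 start at 105 and 99.5, above its upper end. The log2 fold change was -0.06 with a 95% interval from -0.76 to 0.65 (limma, adjusted p = 0.939), a width that leaves room for a change in either direction. Its sign turned with median-of-ratios scaling (0.03) and quantile normalization (0.10), and without fl/fl replicate 1 (0.06) or KO replicate 1 (0.16). Leaving out fl/fl replicate 3 gave -0.19, and removing the length trend -0.07. Abhd13, whose start lies 21 bases from that of Lig4 on the other strand, within the window printed above, was at 1635 ± 105 and 1648 ± 140 scaled counts (SD, n = 3 each; log2 0.01, limma adjusted p = 0.975).

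Trp53bp1 encodes 53BP1 (chromosome 2, 121193281 to 121271407, minus strand) and varied most between fl/fl libraries. It had 4974, 5700 and 2079 scaled counts in fl/fl replicates 1 to 3. It had 4313, 4873 and 5276 in KO replicates 1 to 3. Only fl/fl replicate 3 was outside the range from 4313 to 5700 that held the other 5 libraries. The log2 fold change was 0.30 with a 95% interval from -0.53 to 1.13 (limma, adjusted p = 0.677). It was -0.15 without fl/fl replicate 3, with an interval from -0.42 to 0.12, and 0.16 with the length trend removed. The gene shares 2130 exon bases with Tubgcp4 on the other strand, 15.0% of its annotated exons. Tubgcp4 differed by a log2 of 0.17 (limma, adjusted p = 0.654). Its difference was -0.02 without fl/fl replicate 3 and 0.15 with the length trend removed.

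**Figure D4:**
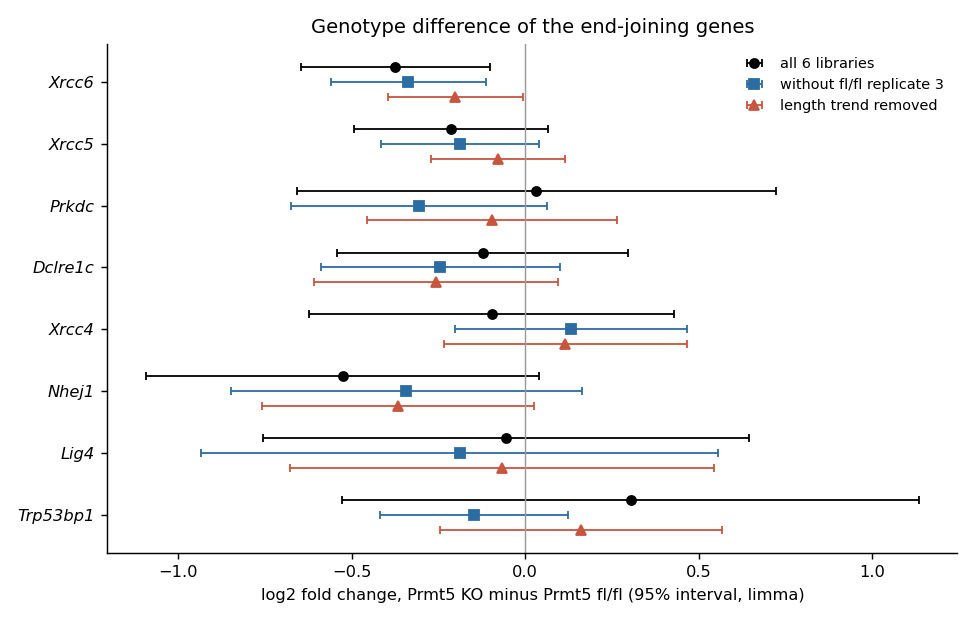
Log2 fold change of Prmt5 KO over Prmt5 fl/fl with its limma 95% interval for each end-joining gene, with all 6 libraries (black), without fl/fl replicate 3 (blue) and with each library's length trend removed (red). Xrcc6 is the gene whose 3 intervals all lie below 0, and Prkdc, Xrcc4 and Trp53bp1 have points on both sides of 0.

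As a group, 6 of the 8 members had a log2 fold change below 0, with a median of -0.11, beside 55.2% below 0 and a median of -0.05 over all tested genes. Without fl/fl replicate 3, 7 of 8 were below 0 with a median of -0.22, beside 59.6% and -0.08 over all genes. With median-of-ratios scaling 5 of 8 were below 0 with a median of -0.02, beside 45.9% and 0.04 over all genes, and with quantile normalization 5 of 8 with a median of -0.04, beside 51.4% and -0.01. Of the members 0 passed the threshold without fl/fl replicate 3, where 2.67% of all genes did, and with the length trend removed 0 passed where 3.33% did. EdgeR's quasi-likelihood test and DESeq2 on the recovered reads also called 0 members, against 0.425% and 7.1% of all genes; each had 1 member at an unadjusted p below 0.05, as limma had. Over the 6 libraries, log2 values of Xrcc5 and Xrcc6 had a Pearson correlation of 0.84, those of Prkdc and Trp53bp1 one of 0.85 and those of Xrcc4 and Trp53bp1 one of -0.91. These correlations describe 6 points that share the difference between genotypes. Over the 5 libraries other than fl/fl replicate 3 they were 0.77, 0.34 and -0.03.

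By Pearson correlation of log2 values over the 6 libraries, the tested genes most like Xrcc6 were Gnb1l (0.995), Trmt12 (0.994) and Aldh1a1 (0.994). Aldh1a1, a retinaldehyde dehydrogenase, was at 3178 ± 465 and 1796 ± 376 scaled counts (SD, n = 3 each; log2 -0.83, limma adjusted p = 0.0907). Those most like Nhej1 were Ogfod3 (0.998), Mtif3 (0.998) and Gstm2 (0.997). With 6 points and 14113 genes such values are a description of these libraries.

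The genes that work around the 8 members were taken from lists. Among 9 tested accessory end-joining factors, which process ends, fill gaps or tune the choice of pathway, 0 passed the limma threshold in either direction, with 1 at an unadjusted p below 0.05. Neither edgeR nor DESeq2 called any of them. An unadjusted p below 0.05 was found for 18.2% of all tested genes. Of the differences, 8 of 9 were below 0, with a median log2 of -0.28, beside 55.2% and -0.05 over all tested genes. Without fl/fl replicate 3 this median was -0.19, beside -0.075 over all genes. With the length trend removed it was -0.23, beside 0.025. Cyren, a small inhibitor of end joining listed as 3110062M04Rik in the table, had 628, 780 and 812 scaled counts in fl/fl replicates 1 to 3. In KO replicates 1 to 3 it had 516, 498 and 521, all below the fl/fl values. It differed by a log2 of -0.52 (limma, unadjusted p = 0.0181, adjusted p = 0.180), and by -0.45 without fl/fl replicate 3. Tdp1, which removes blocked 3' ends, differed by a log2 of -0.26 (limma, adjusted p = 0.336), and by -0.19 without that library. Poll, a DNA polymerase that fills gaps, was the 1 of 9 above 0, at 1044 ± 96.1 and 1311 ± 106 scaled counts (SD, n = 3 each; log2 0.33, limma adjusted p = 0.305; 0.34 without that library). Without fl/fl replicate 3, Wrn, a RecQ helicase and exonuclease, passed the threshold at -0.57 (limma, adjusted p = 0.0417), and with all libraries it was at -0.28 (limma, adjusted p = 0.574). In the fit without that library 2.67% of all genes passed. Paxx was not matched to the table.

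Of 15 tested genes of the chromatin pathway upstream and downstream of 53BP1, 0 passed in either direction, with 0 at an unadjusted p below 0.05 by limma. Over all tested genes 18.2% had such an unadjusted p. Neither count test, edgeR or DESeq2, called any. Their median log2 fold change was -0.12, and 11 of 15 were below 0, beside -0.05 and 55.2% over all tested genes. Without fl/fl replicate 3 this median was -0.085, beside -0.075 over all genes. With the length trend removed it was -0.0065, beside 0.025. Shld2, a subunit of the shieldin complex listed as Fam35a, was at 1195 ± 97.2 and 984 ± 75.5 scaled counts (SD, n = 3 each; log2 -0.28, limma adjusted p = 0.372; -0.21 without fl/fl replicate 3). Kmt5a, which puts the first methyl group on histone H4 lysine 20 and is listed as Setd8, was at 5965 ± 618 and 6944 ± 136 (SD, n = 3 each; log2 0.22, limma adjusted p = 0.374; 0.17 without that library). Paxip1, which encodes the 53BP1 partner PTIP, differed by a log2 of 0.40 (limma, adjusted p = 0.456), and by 0.08 without fl/fl replicate 3. Its fl/fl replicate 3 value of 2993 was, like that of Trp53bp1, below the other fl/fl libraries (5967 and 5712). Shld3 was not matched.

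The route that joins ends by short homologies, alternative end joining, had 11 tested genes, of which 0 passed by limma in either direction and 1, Rad50, had an unadjusted p below 0.05. Over all tested genes 0.73% passed and 18.2% had such an unadjusted p. Their median log2 fold change was 0.04, and -0.04 without fl/fl replicate 3, beside -0.05 and -0.08 over all tested genes. Rad50, the structural subunit of the MRN complex that tethers ends, had 7529, 7366 and 7483 scaled counts in fl/fl replicates 1 to 3. In KO replicates 1 to 3 it had 5543, 5701 and 4899. The fl/fl values were close together and all above the KO values, as in 19.9% of all tested genes. The log2 fold change was -0.47 with a standard error of 0.11 (limma, unadjusted p = 0.00373, adjusted p = 0.101). It was also -0.47 without fl/fl replicate 3 (limma, adjusted p = 0.0524). DESeq2 put it past the threshold (adjusted p = 0.0476) and edgeR did not (adjusted p = 0.132). Of all genes, DESeq2 called 7.1% and edgeR 0.425%. Its complex partners Nbn and Mre11a had log2 fold changes of 0.0018 and 0.13, and of 0.05 and -0.04 without fl/fl replicate 3. Polq, the polymerase of this route, was at 938 ± 409 and 1214 ± 160 scaled counts (SD, n = 3 each; log2 0.46, limma adjusted p = 0.490). Its fl/fl replicates 1 to 3 had 1349, 933 and 532, and without the last the difference was 0.10. Parp2 was at 4883 ± 623 and 5289 ± 339 (SD, n = 3 each; log2 0.12, limma adjusted p = 0.665), and at a difference of 0.22 without fl/fl replicate 3.

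**Figure D5:**
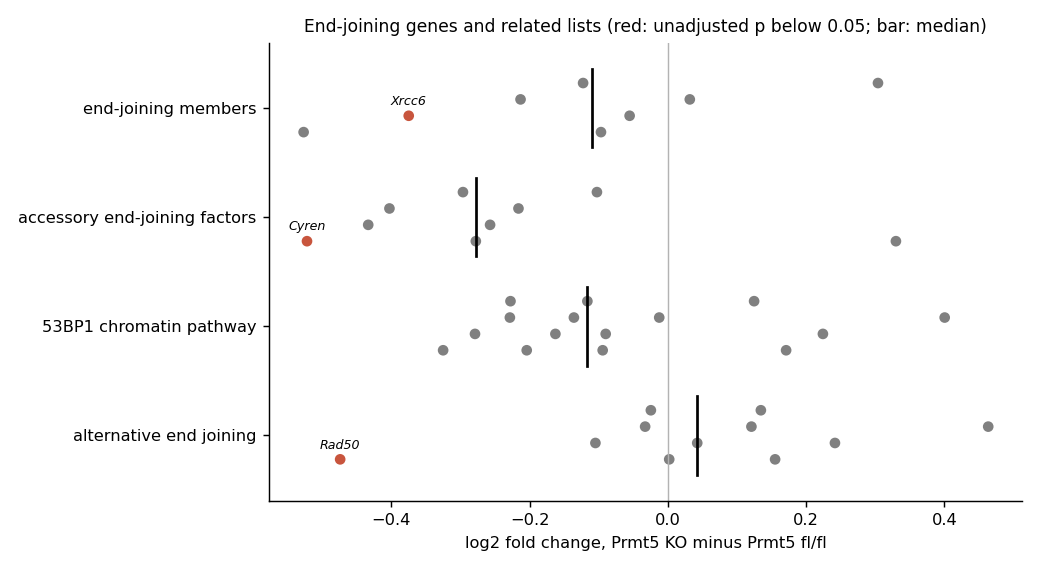
Log2 fold change of Prmt5 KO over Prmt5 fl/fl for the tested genes of the end-joining members and 3 related lists (points, spread vertically for visibility), with the median of each list as a bar. Red points have an unadjusted limma p below 0.05, namely Xrcc6, Cyren and Rad50, and none of the genes passed the adjusted threshold.

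In developing lymphocytes nonhomologous end joining completes V(D)J recombination, so the lymphoid enzymes of that process were read as well. Rag1 was listed at 1.18 scaled counts or fewer in each library and was not tested, and Rag2 had at most 18.9. Dntt, the terminal transferase, had 179, 3 and 46.6 scaled counts in fl/fl replicates 1 to 3 and 0, 7.48 and 56.7 in KO replicates 1 to 3 (log2 -2.04, limma adjusted p = 0.569). Transcripts of both recombinase subunits were thus near 0 in the same libraries that held all 8 end-joining transcripts.

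Markers of other cells and of division were summed per library beside these results. Summed levels of 12 proliferation genes were 210478 to 253972 scaled counts in fl/fl and 205524 to 249237 in KO, with 0 of 12 past the threshold by limma, edgeR and DESeq2 and 0 at an unadjusted limma p below 0.05. Single genes of this list ran from 7155 scaled counts (Cdk1, KO replicate 3) to 47848 (Mcm6, fl/fl replicate 2). The share of the sorted cells that were dividing was not measured. The 7 megakaryocyte and platelet markers summed to 53846 to 80454 in fl/fl and to 23296 to 45232 in KO, with 2 lower past the threshold, and the 6 red cell precursor markers to 3084 to 7344 and 2046 to 2458, with 1 lower and Hbb-b1 listed at 0 in every library. Over all tested genes 0.73% passed. None of these 3 marker calls was made with the replicate number as a block, or without KO replicate 3. Leaving out fl/fl replicate 3 gave 4 and 1, where 2.67% of all genes passed. The 6 T cell markers summed to 762 to 892 in fl/fl and 909 to 1707 in KO. Of 7 granulocyte and monocyte markers 6 were matched, and they summed to 15852 to 141869 in fl/fl. In KO replicates 1 to 3 they summed to 59753, 37512 and 398349, so that 1 library carried the upper end. As with any bulk sample, fewer cells of a type and less RNA per cell cannot be told apart, and the part of these markers in the Ku and Nhej1 values was not tested.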

How the data were processed

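Per the labels' protocols, RNA of sorted cells was extracted with Trizol, reverse transcribed and amplified by SMART-Seq v4 and prepared for sequencing by Nextera XT, and neither marks strand. STAR, featureCounts and build mm10 are named per the submitters' processing notes; no source used here gives versions or the annotation. Read counts were deposited for Prmt5 fl/fl replicate 2. In the other 5 columns the authors deposited a scaled signal, the count times 44704636 over the library's own total. Undoing this gave whole reads for 100% of values (tolerance 1e-06). The deposited gene length, with no other unit, served for levels per kilobase and length trends.

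Genotypes were compared by limma on log2(value + 1), with a variance trend, on the 14113 genes averaging 10 scaled counts or more. Tests were two-sided with 4 residual degrees of freedom and Benjamini-Hochberg adjustment at a threshold of 0.05. Fold changes on this scale understate those of low genes. All 8 members were tested. Libraries are separate pools of mice. The fits were tested on simulated data. Alternatives were 2 scalings, 2 pseudocounts, 2 filters, edgeR and DESeq2 on recovered reads, a replicate block, and each library left out. A length correction (lowess per library, span 0.3) was chosen after seeing the data. It was fitted to each library's deviation from the gene's mean over all 6 libraries, both genotypes together. Members and lists were chosen with earlier results of these data known. Named genes were the members, Prmt5, the members of each related list past the threshold or otherwise up to 3 with the smallest p, genes starting within 1000 bases on the other strand, and the 3 genes most correlated with each of the 2 members of smallest p. Wrn, Tubgcp4, Nbn, Mre11a and the marker genes named were added after their values were seen. Coordinates are from GENCODE M21 and promoter windows from RefSeq, both GRCm38. Apart from the genes that overlap a member, no other transcript matched one at 95% identity over more than 182 bases. One marker gene and the sum of its list are not reported here. R 4.3.3, limma 3.58.1, edgeR 4.0.16, DESeq2 1.42.0, Python 3.11.15 and matplotlib 3.10.9 were used.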

Additional observations from a re-analysis of the deposited data

How the results depend on the processing

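The count of members past the threshold was 0 under each of 16 alternatives, and 1 member, Xrcc6, had an unadjusted p below 0.05 in each of them but the fit without KO replicate 3. The differences of Xrcc5, Xrcc6, Dclre1c and Nhej1 kept their sign in all 16, and those of Xrcc6 ran from -0.43 to -0.20 (adjusted p 0.0951 to 0.406). Signs turned for the others, each far from the threshold. Removing the length trend, added after seeing the data, gave 0.12 for Xrcc4 and -0.10 for Prkdc. Lig4 was at 0.031 with median-of-ratios size factors, 0.10 with quantile normalization, 0.022 with edgeR and 0.047 with DESeq2. With 1 library left out in turn, Lig4 ran from -0.19 to 0.16, Prkdc from -0.31 to 0.26, Xrcc4 from -0.23 to 0.13 and Trp53bp1 from -0.15 to 0.58. The related lists had 1 gene past the threshold with DESeq2 (Rad50) and 0 to 1 with a library left out (Wrn, without fl/fl replicate 3), against 0. Of all genes, 103 passed in the fit reported, 57 with size factors, 64 with quantile normalization, 60 with edgeR, 981 with DESeq2, 470 with the length trend removed and 3 to 377 with a library left out (377 without fl/fl replicate 3). With the replicate number as a block, 1 of all genes and 0 members passed (smallest member adjusted p = 0.350, Xrcc6). The titles of the fl/fl and KO library of one replicate number begin with the same prefix, whose meaning the labels do not give. Mice were matched between genotypes by litter, so pairing by number is possible. Deviations of same-number libraries correlated at -0.14, 0.07 and -0.26 across genes, and not every library was closest to its own number. The numbers were not taken as pairs. This check cannot show that pairing is absent, because the length pattern of fl/fl replicate 3 also enters these deviations. The cause of the changes between settings was not tested. Counting error is widest for Lig4, with 75 to 144 reads per library.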
